A study of Mus musculus with 10 samples.

Results

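The genes described here encode the 6 subunits of protein kinase A (PKA) measured in the hippocampus and 4 of the transcription regulators that act downstream of it, the CREB family members Creb1, Crem and Atf1 and the CREB coactivator Crtc1. They were taken by gene name from a table of 52636 genes, and all 10 were found once and passed the filter on low values, which left 15471 genes. The table holds mRNA levels in the hippocampus of C57BL/6 mice aged 3 months, from 5 libraries labelled Tshr-/-, which lack the receptor for thyroid-stimulating hormone, and 5 of wild type. The labels name no other allele, treatment or age. They do not state which part of Tshr was deleted, whether each library is 1 mouse, or whether the mutants received thyroid hormone, so p-values measure the spread between these libraries.

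PKA is held inactive by a pair of regulatory subunits bound to a pair of catalytic subunits, and cyclic AMP (cAMP) binding to the regulatory subunits frees the catalytic ones. A freed catalytic subunit phosphorylates CREB, which sits on cAMP response elements in gene promoters, and CRTC coactivators move to the nucleus when dephosphorylated and join it there. In the hippocampus this route is known for its part in lasting synaptic potentiation and long-term memory, and the thyrotropin receptor is itself coupled to cAMP production through the stimulatory G protein.

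Depth was 23899650 to 33529811 rebuilt reads per library. Tshr, near the detection limit throughout, had 32 reads in all of wild type and 7 in all of Tshr-/- (2-sided exact permutation p = 0.0556 on FPKM), and 3 of the 5 mutant libraries had none. The genotypes overlapped, since Tshr-/- library 4 had 5 Tshr reads while wild-type libraries 4 and 5 had 2 each. Reads outside the deleted part check nothing. The neuron markers Nrgn and Camk2a ranged from 772 to 1530 and from 425 to 771 FPKM over the 10 libraries. Both had lower means in Tshr-/- (mean ± SD), Nrgn at 1100 ± 257 against 1340 ± 163 and Camk2a at 547 ± 99.2 against 681 ± 88.4. No gene of the neuron, dentate, CA1 or CA3 and CA2 lists was at 0 in any library. Markers of neighbouring thalamus and habenula varied between libraries. The summed level of their 15 genes was 55.1 to 323 FPKM in Tshr-/- and 33.4 to 150 in wild type, highest in Tshr-/- libraries 2 and 1 and wild-type libraries 5 and 2. The choroid plexus list summed to 2290 FPKM in Tshr-/- library 4 and reached at most 91.9 in wild type. In bulk tissue, fewer cells of a type and less RNA per cell cannot be told apart.

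None of the 10 genes passed the test between genotypes. Crem, at 2.27 ± 0.179 FPKM against 2.63 ± 0.0963, and Crtc1, at 25.2 ± 4.33 against 31.4 ± 4.38, lay lower in Tshr-/-. Prkacb and Prkar2b lay higher, and the main catalytic gene Prkaca, the main regulatory gene Prkar1a and Creb1 itself differed least. Values are means ± SD over 5 libraries of a genotype, in FPKM (fragment counts divided by exon length and by library size). The library size behind the deposited values is not the sum of the rebuilt reads: deposited FPKM were 0.945 to 0.999 times what division by those sums gives in Tshr-/- and 0.997 to 1.06 times in wild type, so the choice of scale shifts the genotypes against each other. Calls were made with limma on log2(FPKM + 0.1) where the p adjusted over all 15471 genes was below 0.05, and 0.0129% of all genes met this. At an unadjusted p below 0.05 limma counted 2 of the 10, Crem and Crtc1, beside 13.0% of all genes in either direction and 8.38% lower in Tshr-/-. Limma voom on the rebuilt reads also called 0 of the 10, and it moved the median log2 difference of all genes up by 0.071. The median log2 difference of the 10 was -0.0084, beside -0.011 for all genes tested. Of the 10, 5 lay lower in Tshr-/-, beside 53.3% of all genes tested.

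**Figure D1:**
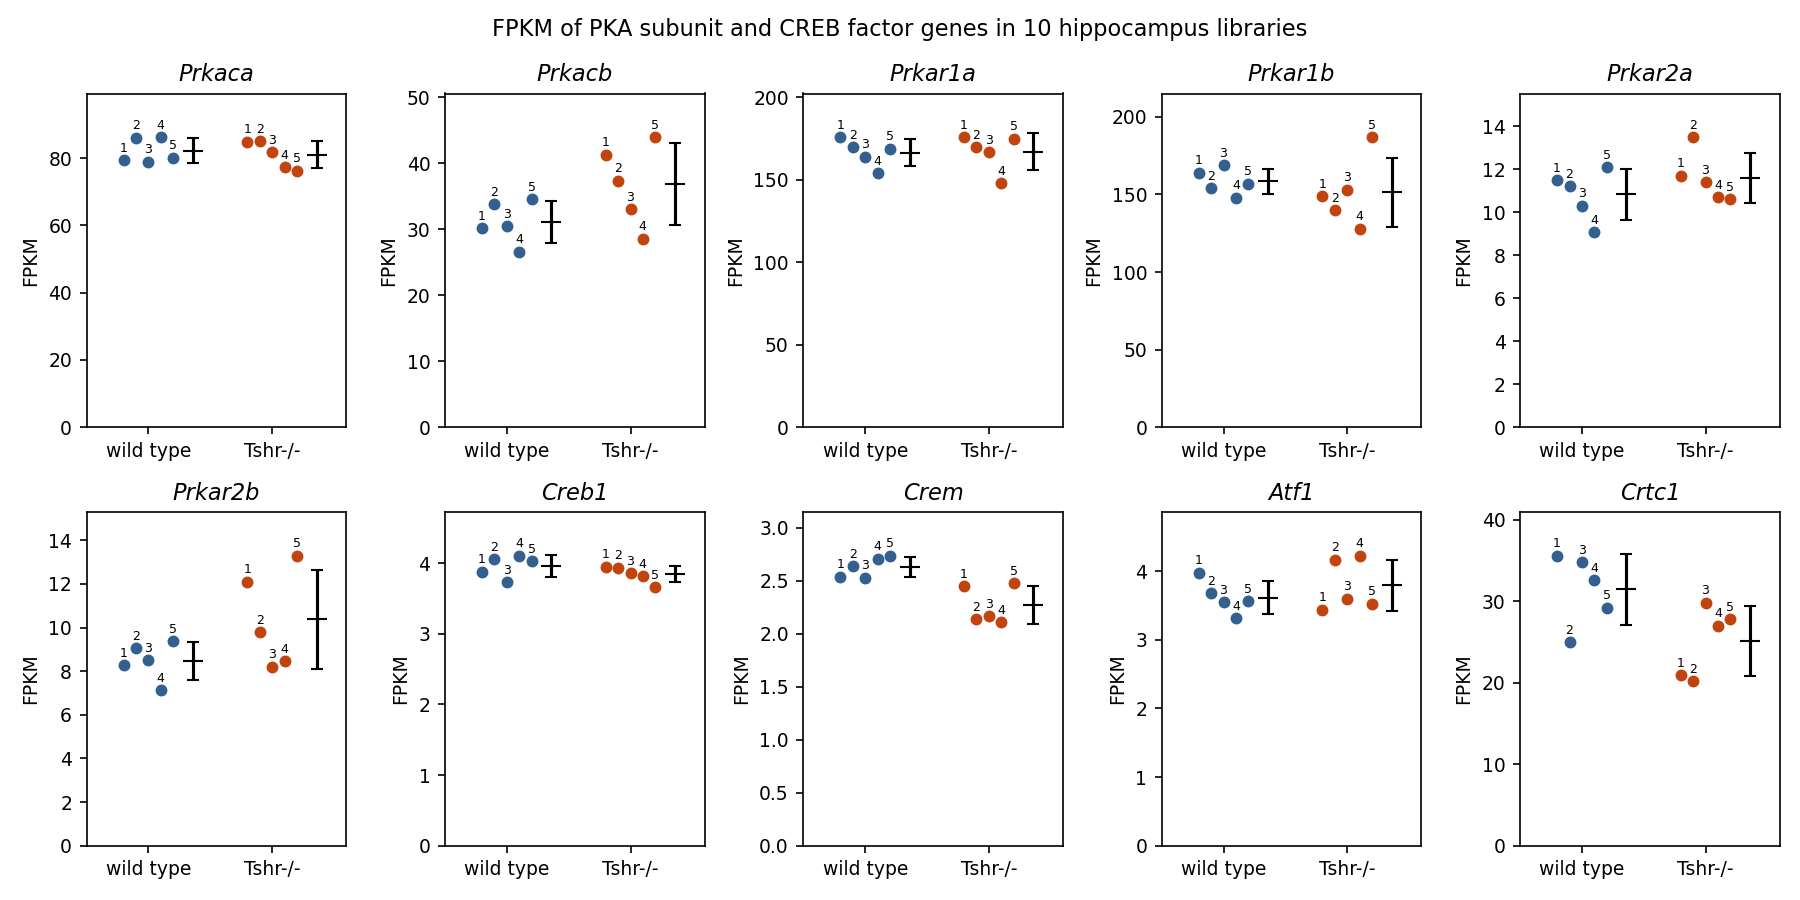
FPKM of each gene (y axis, from 0) in the wild-type (blue) and Tshr-/- (orange) libraries, numbered by library, with the mean and SD of each genotype in black. The 5 Tshr-/- libraries lie below the 5 wild-type libraries for Crem alone, from 2.11 to 2.48 against 2.53 to 2.74.

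The levels of the 10 genes spanned a wide range. Prkar1a and Prkar1b, the type I regulatory subunits, led at 167 ± 9.23 and 155 ± 16.3 FPKM (SD over all 10 libraries), above 98.9% and 98.7% of the genes tested. Prkaca followed at 81.6 ± 3.71, then Prkacb at 34.0 ± 5.53 and Crtc1 at 28.3 ± 5.27. The type II regulatory subunits Prkar2a and Prkar2b had 11.2 ± 1.16 and 9.41 ± 1.89, and the CREB family genes Creb1, Atf1 and Crem closed the order at 3.90 ± 0.144, 3.71 ± 0.313 and 2.45 ± 0.234 FPKM. The median gene tested had 5.05 FPKM, so all 3 CREB family genes stood below it. Neighbours in this order whose ranges overlapped were Prkar1a and Prkar1b, Prkacb and Crtc1, Prkar2a and Prkar2b, and Creb1 and Atf1. The other steps of the order held in all 10 libraries. FPKM divides by the union of all annotated exons, which for Creb1 comes to 13742 bases and for Atf1 to 3060, so levels of these genes per length also depend on how much of the model the hippocampal transcripts use.

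Among the catalytic subunits, Prkaca encodes the alpha form found in most tissues (ENSMUSG00000005469, mm10 chromosome 8, 83972993 to 83996443). It had 84.9, 85.1, 81.7, 77.4 and 76.3 FPKM in Tshr-/- libraries 1 to 5 and 79.5, 86.1, 79.0, 86.3 and 80.2 in wild-type libraries 1 to 5. The genotypes overlapped from 79.0 to 85.1 FPKM. Tshr-/- libraries 4 and 5 lay below every wild-type library, and wild-type libraries 2 and 4 lay above every Tshr-/- library. The log2 difference was -0.021 ± 0.051 (SE, 95% interval -0.13 to 0.09, limma adjusted p = 0.893). Prkacb encodes the beta form, which is abundant in brain (ENSMUSG00000005034, chromosome 3, 146729574 to 146812990). It had 41.3, 37.4, 33.1, 28.6 and 44.0 FPKM in Tshr-/- and 30.2, 33.8, 30.5, 26.6 and 34.6 in wild type. Tshr-/- libraries 1, 2 and 5 stood above every wild-type library, while Tshr-/- libraries 3 and 4 lay within the wild-type range. The log2 difference of Prkacb was 0.23 ± 0.12 (95% interval -0.02 to 0.49, limma adjusted p = 0.422), and with the mean level of the thalamus list as a covariate it was 0.14. Prkaca gave 68.9% ± 3.69 of the catalytic FPKM in Tshr-/- and 72.5% ± 2.40 in wild type, with overlapping ranges of 63.4% to 73.0% and 69.8% to 76.4%.

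Prkar1a, the type I alpha subunit that keeps PKA inactive in most cells, was the most abundant of the set and among the steadiest (ENSMUSG00000020612, chromosome 11, 109649405 to 109669656). It had 176, 170.0, 167, 148 and 175 FPKM in Tshr-/- and 176, 170.0, 164, 154 and 169 in wild type. Library 4 was the lowest in both genotypes and the ranges all but coincided, with a log2 difference of 0.0041 ± 0.060 (95% interval -0.13 to 0.14, limma adjusted p = 0.985). Prkar1b, the type I beta subunit of neurons (ENSMUSG00000025855, chromosome 5, 139017306 to 139150001), had 149, 140.0, 153, 128 and 187 FPKM in Tshr-/- and 164, 154, 169, 148 and 157 in wild type. Tshr-/- library 5 was the highest of all 10 libraries and Tshr-/- library 4 the lowest, and the coefficient of variation was 14.7% in Tshr-/- against 5.31% in wild type. Its log2 difference was -0.07 ± 0.09 (95% interval -0.28 to 0.13, limma adjusted p = 0.766). It rested on single libraries, at -0.15 without Tshr-/- library 5, -0.017 without Tshr-/- library 4 and -0.048 without Tshr-/- library 2. The annotated transcript Gm15672 shares 341 of its exon bases on the same strand, at 0.469 to 0.827 FPKM.

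The type II subunits tether PKA to anchoring proteins at membranes and the cytoskeleton. Prkar2a (ENSMUSG00000032601, chromosome 9, 108689314 to 108750436) had 10.6 to 13.5 FPKM in Tshr-/- and 9.08 to 12.1 in wild type, a log2 difference of 0.09 ± 0.09 (95% interval -0.10 to 0.29, limma adjusted p = 0.677), which was 0.04 without Tshr-/- library 2 and 0.033 without wild-type library 4. Prkar2b, the beta form known from neurons and fat (ENSMUSG00000002997, chromosome 12, 31958476 to 32061296), had 12.1, 9.79, 8.21, 8.45 and 13.3 FPKM in Tshr-/- and 8.26, 9.04, 8.50, 7.14 and 9.36 in wild type. The same 3 Tshr-/- libraries as for Prkacb (1, 2 and 5) stood above every wild-type library, and the other 2 lay within the wild-type range. Its log2 difference was 0.27 ± 0.14 (95% interval -0.03 to 0.57, limma adjusted p = 0.422), and it was 0.18 without Tshr-/- library 5. With the mean level of the thalamus list as a covariate it was 0.19 (limma adjusted p = 0.654). Its coefficient of variation was 21.7% in Tshr-/- against 10.1% in wild type.

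Summed within each library, the 6 PKA subunits came to 459 ± 38.2 FPKM in Tshr-/- and 458 ± 15.3 in wild type. The 4 regulatory genes stood at 2.89 ± 0.203 times the catalytic FPKM in Tshr-/- and 3.04 ± 0.203 times in wild type. Type II subunits took 6.45% ± 0.484 of the regulatory FPKM in Tshr-/- and 5.60% ± 0.432 in wild type, with ranges of 5.78% to 6.98% and 5.11% to 6.19%. Each of these ranges overlapped between the genotypes. They are descriptions of mRNA per length, with no test.

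**Figure D2:**
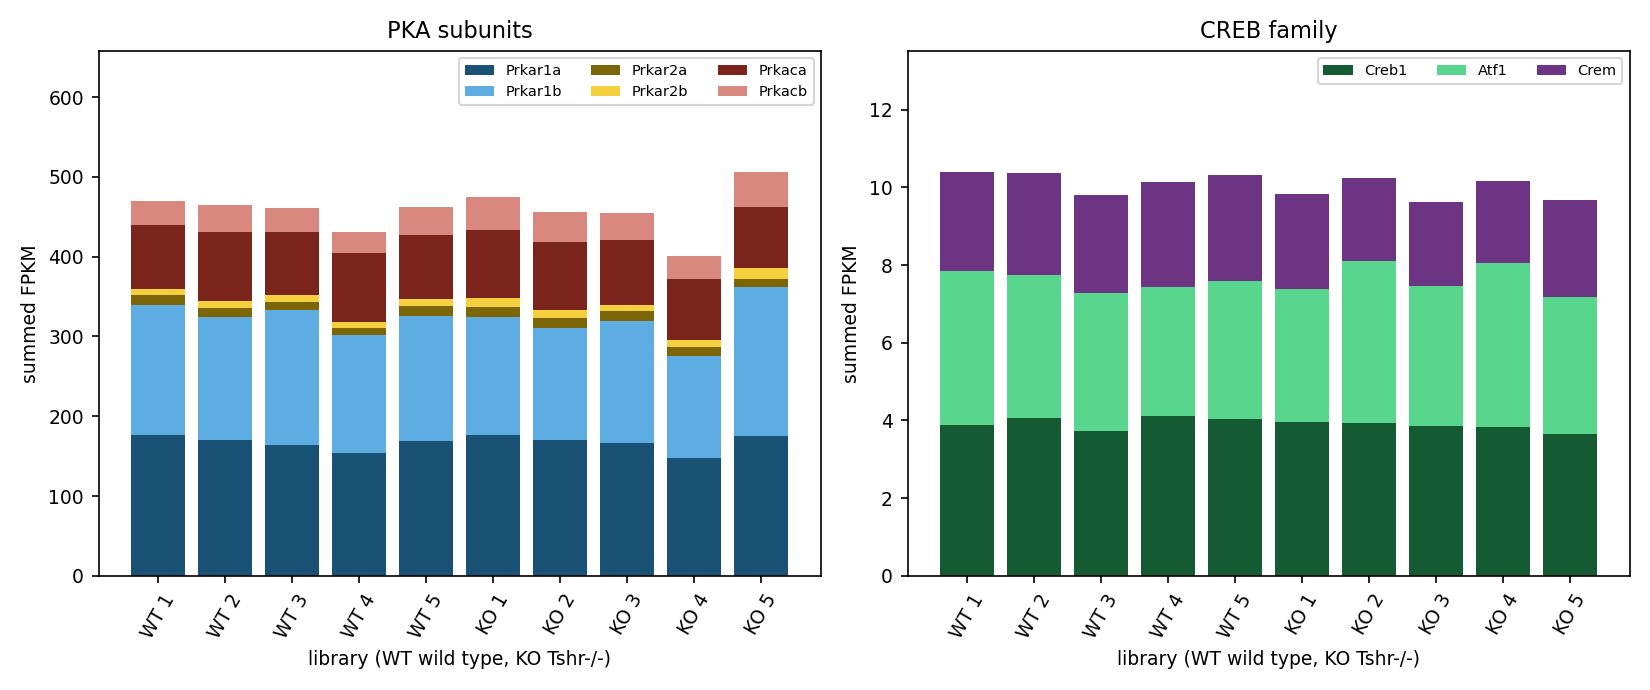
Summed FPKM (y axes, from 0) of the 6 PKA subunit genes (left) and the 3 CREB family genes (right) in each library, stacked by gene. The PKA total runs from 402 in Tshr-/- library 4 to 507 in Tshr-/- library 5, and Prkar1a and Prkar1b make up most of every bar.

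Creb1, the CREB protein gene itself (ENSMUSG00000025958, chromosome 1, 64532645 to 64604548), varied least of the 10. It had 3.95, 3.94, 3.86, 3.82 and 3.66 FPKM in Tshr-/- and 3.88, 4.06, 3.73, 4.11 and 4.03 in wild type, and the groups overlapped. The log2 difference was -0.042 ± 0.051 (95% interval -0.15 to 0.07, limma adjusted p = 0.765). Atf1, a close relative that pairs with CREB (ENSMUSG00000023027, chromosome 15, 100227819 to 100261244), had 3.44 to 4.23 FPKM in Tshr-/- and 3.32 to 3.98 in wild type, a log2 difference of 0.065 ± 0.077 (95% interval -0.11 to 0.24, limma adjusted p = 0.760) that ran from 0.025 to 0.099 with each library left out (lowest without Tshr-/- library 4). Atf1 was read from 249 to 379 reads per library, the fewest of the set.

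Crem encodes activator and repressor forms, among them the cAMP-inducible repressor ICER, and the gene-level value pools them (ENSMUSG00000063889, chromosome 18, 3266048 to 3337748). It had 2.45, 2.14, 2.17, 2.11 and 2.48 FPKM in Tshr-/- libraries 1 to 5 and 2.54, 2.64, 2.53, 2.71 and 2.74 in wild-type libraries 1 to 5. Every Tshr-/- library lay below every wild-type library, which held for 1.76% of all genes tested and for 1 of the 10. The gap was narrow, from 2.48 to 2.53. The log2 difference was -0.21 ± 0.069 (95% interval -0.36 to -0.06, limma adjusted p = 0.26), rank 697 of all genes by p. With the rebuilt reads divided by library totals alone, the libraries overlapped, at 12.9 to 15.0 reads in every 1000000 in Tshr-/- and 14.1 to 16.1 in wild type, an alternative chosen after seeing the data. Gm6225, on the opposite strand, shares 472 of the 5895 exon bases of Crem at 0.300 to 0.616 FPKM, and the library kit does not mark strand, so the reads of the 2 genes cannot be told apart there. Relative to its family, Crem took 22.9% ± 2.25 of the summed Creb1, Atf1 and Crem FPKM in Tshr-/- and 25.8% ± 0.928 in wild type. Tshr-/- libraries 1 and 5 reached 24.9% and 25.6%, within the wild-type range of 24.4% to 26.7%.

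Crtc1, the CRTC coactivator most expressed in neurons (ENSMUSG00000003575, chromosome 8, 70382355 to 70439579), varied most between libraries, with an SD of 0.279 on the log2 scale. It had 20.9, 20.2, 29.8, 27.0 and 27.8 FPKM in Tshr-/- and 35.6, 25.0, 34.8, 32.6 and 29.2 in wild type. Tshr-/- libraries 1 and 2 were the lowest of all, and wild-type libraries 2 and 5 were the lowest of their genotype. The log2 difference was -0.33 ± 0.13 (95% interval -0.62 to -0.04, limma adjusted p = 0.34).

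Those 4 libraries were also the 4 highest in thalamus and habenula markers, at 0.94 and 2.07 (Tshr-/- libraries 1 and 2) and 0.34 and 0.73 (wild-type libraries 2 and 5) above the mean of all libraries on the log2 scale. They were also the lowest of their genotype in the summed general neuron markers. These came to 2310 and 2010 FPKM in Tshr-/- libraries 1 and 2 and to 2640 and 2850 in wild-type libraries 2 and 5. Of the 14 thalamus and habenula genes tested, 14 were higher in Tshr-/- and 0 were called. An unadjusted limma p below 0.05 was found for 2 of them, beside 13.0% of all genes in either direction. With the mean of that list as a covariate, the log2 difference of Crtc1 was -0.16 ± 0.077 (limma adjusted p = 0.461) and that of Crem -0.21 ± 0.076 (limma adjusted p = 0.323). Within the 4 libraries high in thalamic transcripts, Crtc1 had 20.2 to 20.9 FPKM in Tshr-/- and 25.0 to 29.2 in wild type. Within the 6 low ones it had 27.0 to 29.8 and 32.6 to 35.6. These sets were formed after the values were known, and they are small. In the set of 4, 6 of the 10 genes did not overlap between genotypes, beside 47.6% of all genes, and in the set of 6 it was 2 of the 10 (Crtc1 and Crem), beside 15.7%. For Crem the lack of overlap within them follows from that over all libraries.

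**Figure D3:**
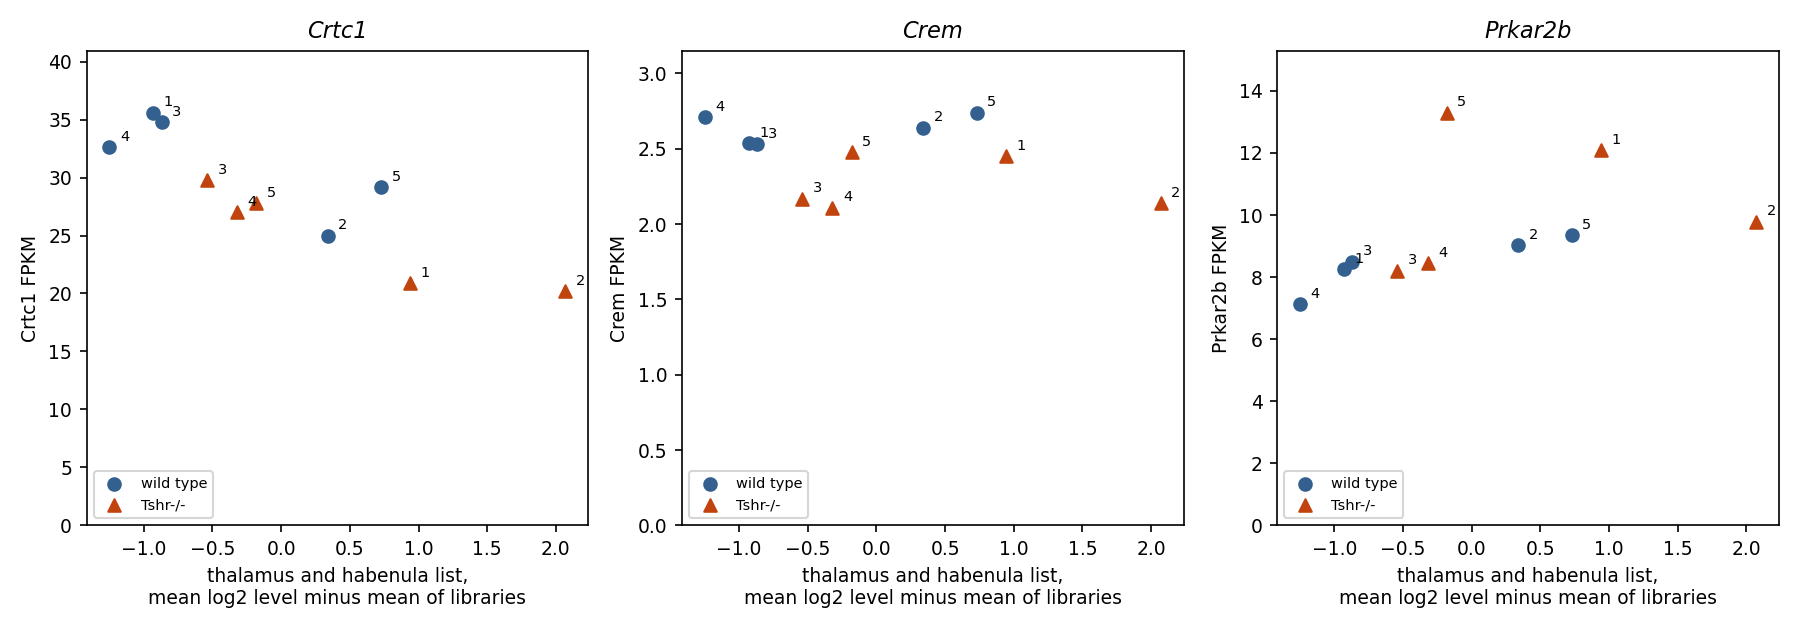
FPKM of Crtc1, Crem and Prkar2b (y axes, from 0) against the mean log2 level of the thalamus and habenula markers in each library, relative to the mean of the 10 libraries (x axes), with wild type as blue circles and Tshr-/- as orange triangles. Crtc1 is lowest, at 20.2 and 20.9, in the 2 libraries highest in these markers.

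No gene of the hippocampal neuron lists was called, and the lists differed in how their summed levels lay. The 12 dentate granule neuron markers summed to 118 to 153 FPKM in Tshr-/- and 168 to 219 in wild type, without overlap, and 12 of 12 were lower in Tshr-/- (8 at an unadjusted limma p below 0.05, 0 called). The 10 CA1 markers summed to 148 to 262 against 222 to 295 FPKM, with 9 of 10 lower (5 at an unadjusted p below 0.05, 0 called). The 15 CA3 and CA2 markers summed to 584 to 653 against 596 to 642, with 7 of 15 lower. Of these 15, 4 had an unadjusted limma p below 0.05 in either direction and 0 were called. The 8 general neuron markers summed to 2010 to 3030 against 2640 to 3400 FPKM, with 6 of 8 lower. Of these 8, 2 had an unadjusted limma p below 0.05 in either direction and 0 were called. The 6 markers of inhibitory neurons summed to 163 to 200 against 213 to 239 FPKM, also without overlap, with 5 of 6 lower. Npy, the most abundant of them, had 54.0 ± 15.6 against 81.4 ± 6.2 FPKM. By the mean log2 level of this list, relative to all libraries, the genotypes overlapped. Wild-type library 4, at -0.03, lay below Tshr-/- libraries 1 and 5, at 0.0 and -0.01. Of these 6, 3 had an unadjusted limma p below 0.05 in either direction and 0 were called. Over all genes tested, 13.0% had an unadjusted limma p below 0.05 in either direction, and 53.3% lay lower in Tshr-/-. The part of these markers in the values of Crem, Crtc1 and the CREB-responsive genes was not tested.

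By the closeness of their profiles over the 10 libraries, the genes most like Crtc1 were Fmnl1, Dbn1 and Asphd2. Their log2 levels, each centred on its own mean, differed from that of Crtc1 by a root mean square of 0.0396, 0.0474 and 0.0512. Fmnl1 had 24.1 ± 3.97 FPKM in Tshr-/- and 30.0 ± 3.73 in wild type, a log2 difference of -0.32 (limma adjusted p = 0.31). All 3 were, like Crtc1, lowest in Tshr-/- libraries 1 and 2.

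**Figure D4:**
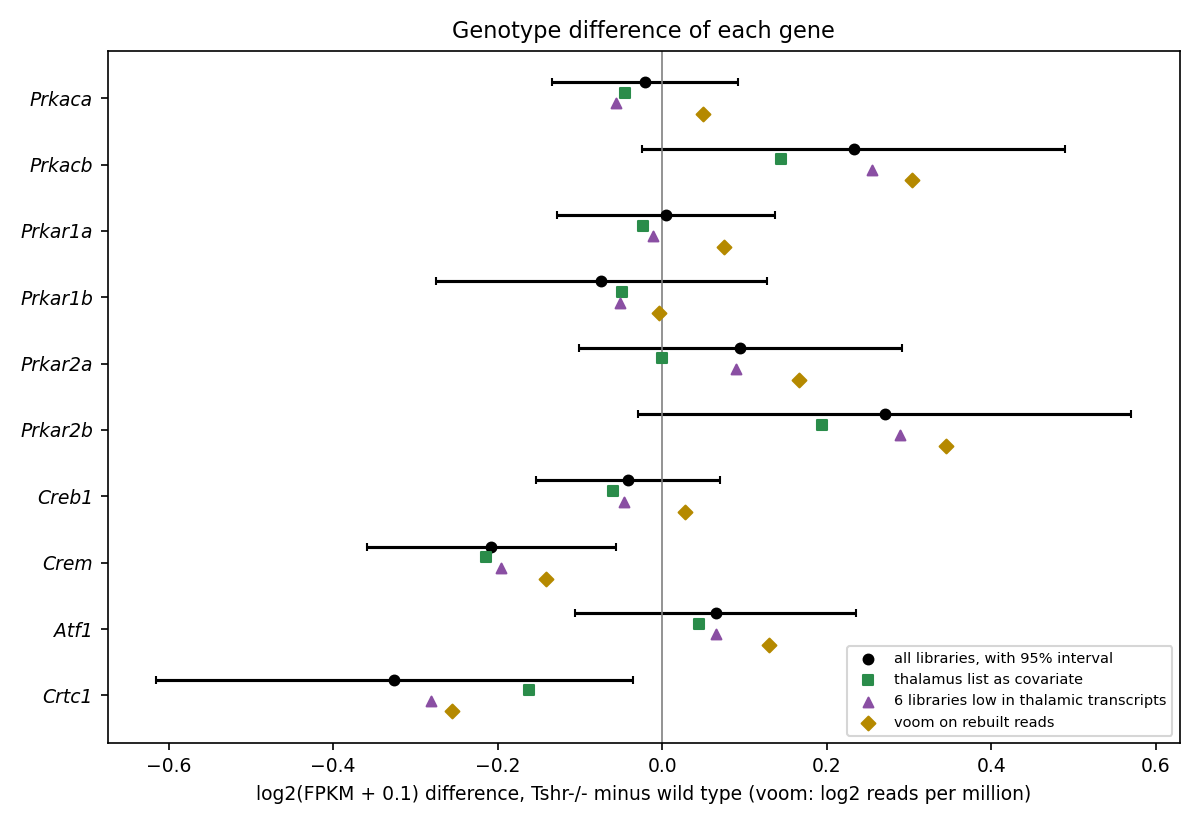
Difference between Tshr-/- and wild type on the log2 scale (x axis) for each gene, with 95% intervals for the fit of all libraries (black circles), and the same difference with a thalamus covariate, in 6 libraries low in thalamic transcripts and by voom. The intervals of Crem (-0.36 to -0.06) and Crtc1 (-0.62 to -0.04) lie below 0, and neither gene is called after adjustment.

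Other genes of the pathway were described by lists chosen with earlier results of these data known. Their counts of lower genes stand beside 53.3% lower in Tshr-/- over all genes tested. The inhibitor peptides Pkia, Pkib and Pkig, which block free catalytic subunits, and the related kinase Prkx had 0 of 4 called by limma and 0 at an unadjusted p below 0.05, with 2 lower and 2 higher. Pkia, the main one in this tissue, had 46.6 ± 1.47 FPKM in Tshr-/- and 44.0 ± 2.06 in wild type (limma adjusted p = 0.469). Pkig ranged from 12.1 to 26.8 FPKM in Tshr-/-, with library 5 highest as for Prkacb, Prkar1b and Prkar2b. Of the A-kinase anchoring proteins, which hold PKA beside its substrates, 16 of 20 passed the filter, 10 lay lower and 6 higher, and 0 were called or had an unadjusted p below 0.05. The smallest p values in that list belonged to Gskip (6.49 ± 0.297 against 7.01 ± 0.286 FPKM), Akap1 (10.8 ± 0.559 against 11.6 ± 0.627), Sphkap (28.8 ± 3.90 against 32.9 ± 3.80) and the dendritic protein Map2 (54.6 ± 3.71 against 58.7 ± 2.65), with limma adjusted p from 0.391 to 0.461. With the thalamus covariate Akap1 went from -0.10 to -0.054 and Sphkap from -0.19 to -0.11 on the log2 scale. Gskip went from -0.11 to -0.13 and Map2 from -0.104 to -0.106.

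Upstream of PKA, the list of stimulatory G proteins and adenylyl cyclases had 11 of 12 genes tested, 6 lower and 5 higher. Limma called 0, and 3, all lower, had an unadjusted p below 0.05, beside 8.38% of all genes lower and 13.0% in either direction. Gnas, the stimulatory alpha subunit, had 12.1, 13.0, 12.6, 11.3 and 12.1 FPKM in Tshr-/- and 13.5, 13.1, 16.4, 16.2 and 14.8 in wild type. The groups did not overlap and the closest values were 13.0 and 13.1. Of the 11 tested, 1 was lower without overlap, beside 1.76% of all genes. The log2 difference of Gnas was -0.27 ± 0.07 (limma adjusted p = 0.195). Gnas lies in an imprinted locus with overlapping and antisense transcripts, so this value is uncertain. The cyclases Adcy9 and Adcy2 had unadjusted p values below 0.05, at 24.9 ± 3.74 against 29.6 ± 2.22 and 29.7 ± 2.74 against 33.2 ± 1.18 FPKM (limma adjusted p = 0.311 and 0.332), and Adcy6 had 9.66 ± 0.317 against 8.98 ± 0.637 (0.446). With the thalamus covariate the log2 difference of Adcy9 went from -0.26 to -0.14 and that of Adcy2 from -0.16 to -0.10. That of Gnas went from -0.27 to -0.26 and that of Adcy6 from 0.11 to 0.12.

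Beside CREB, the list of coactivators, CREB kinases and salt-inducible kinases had 15 of 15 genes tested, 11 lower and 4 higher. Limma called 0, and 2, both lower, had an unadjusted p below 0.05, beside 8.38% of all genes lower and 13.0% in either direction. Camkk1, a kinase that activates the CREB kinase CaMKIV, had 56.5 ± 8.80 FPKM in Tshr-/- and 75.0 ± 8.89 in wild type (log2 -0.41 ± 0.12, limma adjusted p = 0.2). Sik3, a kinase that keeps CRTC proteins in the cytoplasm, had 18.9 ± 1.08 against 21.4 ± 1.08 FPKM, with no overlap between genotypes before rounding (limma adjusted p = 0.242). Of the 15, 1 was lower without overlap, beside 1.76% of all genes. The histone acetyltransferases Ep300 and Crebbp, which CREB recruits, had 6.15 ± 0.250 against 6.57 ± 0.376 and 5.09 ± 0.417 against 5.45 ± 0.330 FPKM, and neither was called. The count of 11 lower genes was 7 with the thalamus covariate and 6 with voom on the rebuilt reads. Counted from the median of all genes in the same fit, it was 10 without the covariate, 7 with it and 10 with voom, so the drop with voom went with its shift of all genes.

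Of 28 CREB-responsive genes listed, 27 passed the filter, 21 lay lower in Tshr-/- and 6 higher, with a median log2 difference of -0.347 beside -0.011 for all genes. Limma called 1, the enkephalin precursor gene Penk, whose promoter is a classic CREB target. Penk had 9.93, 9.58, 9.53, 8.18 and 8.86 FPKM in Tshr-/- and 18.7, 16.8, 17.2, 17.5 and 13.7 in wild type, far apart in all 10 libraries. It fell by 0.85 ± 0.09 on the log2 scale (limma adjusted p = 0.0127), a call that ended when mutant library 2, or 1 of wild-type libraries 2, 3 and 4, was left out, with log2 differences of -0.87, -0.85, -0.84 and -0.84 (limma adjusted p = 0.0503, 0.0732, 0.081 and 0.0601). Arc had 28.2 ± 6.44 against 63.1 ± 20.3 FPKM, Fos 2.99 ± 0.319 against 5.88 ± 1.69 and Fosb 0.997 ± 0.198 against 1.96 ± 0.492, with limma adjusted p of 0.129, 0.136 and 0.136. With the thalamus covariate the log2 difference of Arc went from -1.13 to -1.01 and that of Fos from -0.91 to -1.03. That of Fosb went from -0.89 to -0.80 and that of Penk from -0.85 to -0.83 (limma adjusted p = 0.0236 for Penk). Nr4a1 had 26.2 ± 5.30 against 46.3 ± 11.6 FPKM and Nfil3 4.41 ± 0.387 against 6.02 ± 0.768. An unadjusted p below 0.05 with a lower level was found for 13 of the 27, beside 8.38% of all genes. Every Tshr-/- library lay below every wild-type library for 6 of the 27 (22.2%, beside 1.76% of all genes). The list holds immediate early genes already known to be low in these libraries, so its count is not independent evidence, and several of its genes respond to pathways other than PKA.

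**Figure D5:**
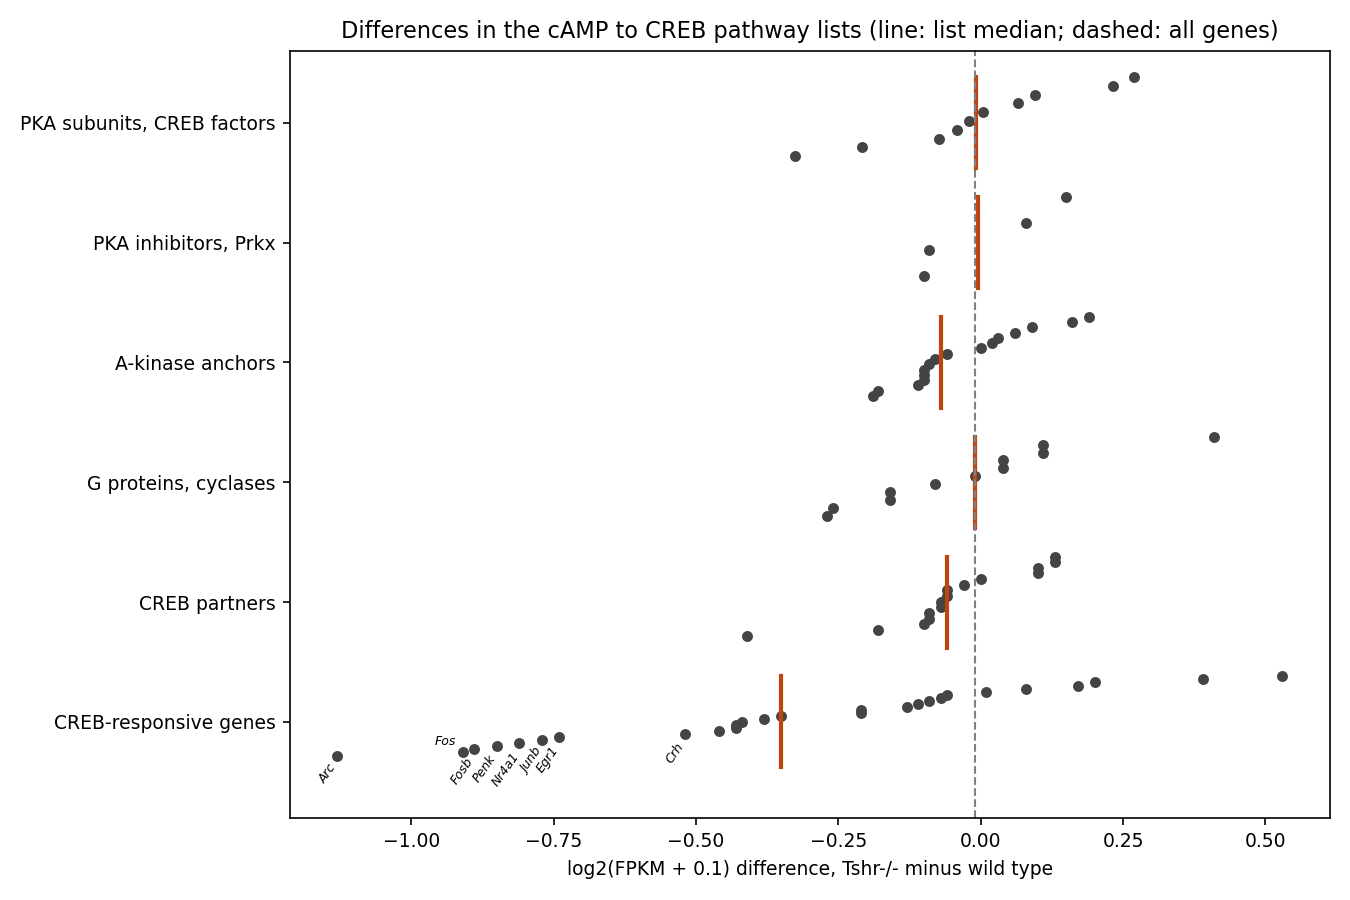
Difference between Tshr-/- and wild type on the log2 scale (x axis) for each tested gene of the PKA and CREB set and of the 5 pathway lists, with each list's median as an orange line and the median of all genes (-0.011) dashed. The median of the CREB-responsive genes is -0.347, and those below -0.5 are named.

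The element through which CREB acts was looked for in RefSeq promoter windows of build GRCm38.p6, which run from 250 bases before to 50 after an annotated start. The palindrome TGACGTCA, and its 5-base core TGACG on either strand (every palindrome holds the core on both strands), were searched in 22 windows of 9 of the 10 genes (Crem had no entry) and 32 windows of 22 of the 28 CREB-responsive genes (Egr1, Arc, Sik1, Vgf, Penk and Crh had no entry). Of the 9, Prkar1a alone held the palindrome, in 1 of its 6 windows. Prkaca, Prkacb, Prkar1a, Prkar1b, Prkar2a and Atf1 held the core, and Prkar2b, Creb1 and Crtc1 held neither in these windows. Among the 22 CREB-responsive genes, 6 held the palindrome and 20 the core. That list was chosen for promoters known to respond to CREB, so a higher share than in all genes is no finding. Over the 10583 tested genes found in the table, 3.57% held the palindrome and 35.2% the core in at least 1 window. Over all 32851 windows the shares were 1.79% and 20.8%. Those 32851 windows belong to 27025 genes, and the 22 windows above to 9 genes. A gene with more windows has more chances to hold either, so the counts per gene are not on 1 base.

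The 7 palindromes are shown because they are the letters that CREB, CREM and ATF1 proteins are known to bind. Each has 10 bases on each side, 5′ to 3′ on the gene's strand, with the palindrome in capitals. The start is that of the window. For Prkar1a it belongs to 1 of 6 windows and lies inside the gene, which begins at 109649405.
Prkar1a, chr11:109650890-109650917, plus strand, 49 bases before the start: cgaggcgcatTGACGTCAgcagccgaac
Scg2, chr1:79440077-79440104, minus strand, 68 bases before the start: gctgagccggTGACGTCAgcgtggaatg
Btg2, chr1:134079304-134079331, minus strand, 166 bases before the start: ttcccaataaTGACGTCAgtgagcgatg
Th, chr7:142900023-142900050, minus strand, 45 bases before the start: agaggggcttTGACGTCAgcctggcctt
Cartpt, chr13:99900778-99900805, minus strand, 112 bases before the start: cggcgggcatTGACGTCAaacggcagcg
Sst, chr16:23890875-23890902, minus strand, 48 bases before the start: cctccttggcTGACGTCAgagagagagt
Dusp1, chr17:26508598-26508625, minus strand, 143 bases before the start: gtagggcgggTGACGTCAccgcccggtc

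The genes that carry this palindrome did not share 1 direction. Sst, the somatostatin gene in which the element was defined, had 289 ± 87.4 FPKM in Tshr-/- and 357 ± 31.5 in wild type (limma adjusted p = 0.413). Cartpt had 1.85 ± 0.732 against 1.20 ± 0.308 (0.422), Scg2 76.4 ± 12.7 against 81.9 ± 6.59 (0.669), Dusp1 9.19 ± 1.53 against 10.4 ± 3.35 (0.839) and Btg2 5.34 ± 0.545 against 6.19 ± 0.484 (0.312). Th stood below the filter at 0.664 ± 0.349 against 0.163 ± 0.101 FPKM. These 6 and Prkar1a were named for the element found in their window, and none was called. Fos, Fosb, Nr4a1 and Nfil3, 4 of the 6 CREB-responsive genes without overlap between genotypes, held the core and not the palindrome in these windows, and the other two, Arc and Penk, had no entry.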

How the data were processed

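RNA was extracted with Trizol and made into libraries with a NEBNext Ultra kit, which does not mark strand, per the labels' protocols. The submitters' processing notes name the aligner HISAT2 2.0.5, the counter featureCounts 1.5.0-p3 and the build mm10. For the annotation, no release was given in the sources used here. The authors deposited 1 table of FPKM values for the 10 libraries. For all 10 genes the gene coordinates match GENCODE vM21 and the gene length equals the union of its exons.

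Reads were rebuilt from the product of FPKM and length, which within a library came in whole steps for 100% of values above 0 (tolerance 0.01 of a read). They sum to 23899650 to 33529811 reads per library; intervals and limits for reads cover counting error only.

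Genes with a mean of at least 0.5 FPKM were tested on log2(FPKM + 0.1) with limma 3.58.1 in R 4.3.3 (genotype alone, empirical Bayes with a mean-variance trend), with Benjamini-Hochberg adjustment over all 15471 genes. Tshr was compared with a 2-sided exact permutation test, which cannot give a p below 0.00794 here. The fit was run on simulated data with known changes, and no detection rate from it is given here. Positive differences mean higher in Tshr-/-, and the added 0.1 understates changes of low genes. The replicate numbers do not pair the libraries in the labels.

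The 10 genes and the gene lists were chosen with earlier results of these data known. Genes named are the 10, Tshr, called genes of the pathway lists, the 4 with the smallest p in each pathway list, the 3 closest in profile to the gene that varies most, and at most 2 abundant markers of a list. Genes named for a promoter element or for lack of overlap were chosen after their values were seen. Alternatives were pseudocounts of 1 and 0.01, no filter, a filter at 1 FPKM, median-ratio and quantile scaling, no trend, robust empirical Bayes, only protein-coding genes, a replicate block, voom on rebuilt reads, each library left out, a thalamus covariate and the 6 libraries low in thalamic transcripts. Scaling by rebuilt library totals, directions counted from the median of all genes, the comparison within sets of libraries by thalamic transcripts, and the list counts under voom, covariate and subset were added after seeing the data.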

Additional observations from a re-analysis of the deposited data

Results flagged for a closer look

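Among 62 groups of 5 libraries examined (10 PKA and CREB genes, Tshr and the 20 named pathway genes in each genotype), 1 held a library far from the others, where about 1 in 20 (3.1 groups) would by chance. Prkx, a kinase related to the PKA catalytic subunits, had 2.66 FPKM in wild-type library 2, and the next wild-type library had 2.34, a gap of 0.724 of the group's range.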

How the results depend on the processing

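None of the 10 genes was called under any of the 23 alternatives, and 218 of their 230 log2 differences kept their direction. Those that turned were near 0. Prkaca was 0.079 with quantile normalization, 0.050 by voom and from -0.039 to 0.00073 with each library left out. Prkar1a was -0.024 with the thalamus covariate, -0.011 in the 6 libraries low in thalamic transcripts and from -0.024 to 0.047 with each library left out. Prkar2a was -0.00067 with the covariate and Creb1 was 0.028 by voom. Voom moved the median of all genes by 0.071, and measured from that median Creb1 was -0.0311 by limma and -0.0319 by voom and Prkaca -0.0103 and -0.00986, so neither turned against the other genes. Crem ranged from -0.25 to -0.14 and Crtc1 from -0.41 to -0.16, with the smallest limma adjusted p at 0.217 and 0.227. The count of genes with no overlap between genotypes (Crem alone) was 0 when reads were scaled by library totals, chosen after seeing the data.

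Of all genes, limma called 2; the count was 14 with a pseudocount of 0.01, 4 with no filter, 13 with a filter at 1 FPKM, 13 with median-ratio scaling, 4 with quantile normalization, 1 with no trend, 13 with robust empirical Bayes, 17 among protein-coding genes, 9 by voom, 5 with the covariate, and 0 to 9 with each library left out (0 when mutant library 2, or any of wild-type libraries 2, 3 and 4, was dropped, and 9 when mutant library 5 was). The causes were not tested. In a fit with a replicate block it was 3, with 0 of the 10 genes called and a Tshr p of 0.188; same-numbered libraries deviated with correlations from -0.0651 to 0.296, and 2 of 5 Tshr-/- libraries correlated best with their own number. The Tshr exact permutation p ran from 0.0317 to 0.0794 with each library left out (lowest when mutant library 4, or 1 of wild-type libraries 4 and 5, was dropped). Of the PKA inhibitor list, 2 genes were lower, 1 with the covariate, 1 in the 6 libraries and 1 to 2 with each library left out. Pkig, at -0.1, was 0.010 with the covariate, 0.036 in the 6 libraries, and from -0.25 to 0.035 with each library left out. The CREB partner list had 7 lower genes with the covariate and 6 by voom (10 below the median of all genes by voom), while the CREB-responsive list had 19 to 22 lower genes under every alternative run on it. Depth limits Atf1 and Crem most, at 249 to 379 and 333 to 524 reads per library.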
